A study of Homo sapiens with 6 samples.

Results

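The constitutive proteasome genes were followed over 6 arrays of 2 human osteosarcoma cell lines. The probe sets taken were those that the array annotation assigns to 1 gene symbol made of PSMA, PSMB, PSMC, PSMD or PSME and a number, without the immunoproteasome genes PSMB8, PSMB9 and PSMB10. This gave 66 of the 54675 probe sets of the Affymetrix U133 Plus 2.0 array, for 34 of 19775 genes. KHOS is a line made by transforming the HOS osteosarcoma line with a Kirsten sarcoma virus, and U-2OS is an independent osteosarcoma line. Each line had 1 array for each of 3 conditions: control, the vector miRSelect pEP-miR-Null ("miR-null") and the vector miRSelect pEP-miR-1 ("miR-1"), which carries the muscle microRNA miR-1. The vectors were delivered with Lipofectamine LTX and Plus Reagent for 48 hours, and each array held RNA pooled from 3 flasks. For the control arrays the labels give no vector. Whether the control cells were exposed to the transfection reagent is not stated in the labels. The purpose of the series was to compare transcripts with and without added miR-1.

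The proteasome is the main protease for proteins tagged with ubiquitin. Its 20S core is a stack of rings, with outer rings of alpha subunits, which gate the chamber, and inner rings of beta subunits, of which PSMB5, PSMB6 and PSMB7 carry the active sites. The 19S cap binds ubiquitin, unfolds the substrate with a ring of ATPases (PSMC genes) and removes ubiquitin through non-ATPase subunits (PSMD genes). Cells that lose proteasome activity are known to raise most subunit genes together through the transcription factor NRF1 (gene NFE2L1), which binds antioxidant response elements in their promoters. The proteasome is a drug target in multiple myeloma, a cancer of plasma cells.

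By role, the probe sets covered 7 of 8 alpha-ring symbols, 7 of 8 beta-ring symbols, 5 of 6 ATPases and 9 of 11 non-ATPase subunits. They also covered 3 of 3 chaperones that help assemble the base of the cap (PSMD5, PSMD9 and PSMD10, which are not subunits in spite of their symbols) and 3 of 4 activators, the alternative caps. PSMA6, PSMB11, PSMC5, PSMD7, PSMD13 and PSME2 had no probe set with a single symbol and were not analysed here. A gene was represented by its probe set with the highest mean, called the chosen probe set below, and was tested where that mean reached 5.11 (log2), the median of all probe sets. This held for 33 of the 34 genes. The exception was PSMA8, the alpha subunit of the testis, whose values ran from 3.37 (KHOS miR-1) to 3.74 (U-2OS miR-1). Of the 33 tested genes, 30 had a mean of at least 10 and 13 a mean of at least 12, levels reached by 2148 and 406 of all 12958 tested genes.

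Expression values were the authors' log2 values from RMA, a background correction, normalization and summary of the probes of a probe set, so differences between arrays are log2 ratios. The deposited arrays did not share the same distribution. Their interquartile range was 3.24, 3.32 and 3.36 on KHOS control, miR-null and miR-1, and 3.07, 2.84 and 2.75 on those of U-2OS. Array medians ran from 4.98 (KHOS miR-1) to 5.15 (U-2OS miR-1). Results after quantile normalization are given below as an alternative. Over all probe sets, the correlation between 2 arrays was 0.978 to 0.996 within a line and 0.910 to 0.938 between KHOS and U-2OS. Bacterial spike-in probe sets averaged 9.76 to 10.13 on the KHOS arrays and 10.81 to 11.65 on the U-2OS arrays, and the actin 3' probe set exceeded its 5' probe set by 2.68 to 2.90 in KHOS and by 2.40 to 2.64 in U-2OS. Both measures therefore moved with the line. They were also lowest on the control array of each line. Spike-ins averaged 9.76 on the KHOS control array, against 10.13 (miR-null) and 9.93 (miR-1), and 10.81 in U-2OS, against 11.33 and 11.65. The actin difference was 2.68 in KHOS control, against 2.89 and 2.90, and 2.40 in U-2OS control, against 2.64 and 2.49. Their part in the differences between lines and from control was not tested. Of 9 mesenchymal and osteoblast markers, 5 reached the level threshold as a mean over all arrays. COL1A2, ALPL, IBSP and SP7 did not. TWIST1 reached it only through KHOS, with U-2OS values of 3.30, 4.05 and 3.37 (control, miR-null and miR-1). RUNX2 read 6.74 on the U-2OS control array, but 4.72 and 4.23 on the U-2OS miR-null and miR-1 arrays, below the level threshold. Of the epithelial, blood and endothelial markers 1 of 3 each reached it. EPCAM, the epithelial one, lay at 8.43 to 8.70 in KHOS and 5.49 to 5.96 in U-2OS. The blood and endothelial ones were CD3E (5.07 to 5.36) and PECAM1 (5.69 to 6.54). PTPRC and CDH5, from the same blood and endothelial lists, stayed between 3.53 and 3.89. Each line and condition had 1 array, so the only repetition of a vector effect was between the lines, and the only repetition of a line difference was over the 3 conditions. Means below are given with the SD over the 3 arrays of a line, which includes any effect of the vectors. The p-values measure the spread between these pooled arrays and not between cultures.

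KHOS and U-2OS differed in 13 of the 33 genes, and the differences did not run in one direction. Relative to U-2OS, 9 genes were higher in KHOS and 4 were lower (limma, Benjamini-Hochberg adjusted p below 0.05). That was 27.3% and 12.1% of the tested proteasome genes, where 30.3% and 24.5% of all tested genes were higher and lower, so the share of higher genes was near the background and the share of lower genes below it. The values of the lines did not overlap in 14 genes with KHOS higher and 8 with KHOS lower, 42.4% and 24.2%, against 32.7% and 32.2% of all tested genes. The median difference was 0.08 (log2), against -0.0020 for all tested genes. Among genes with a mean of at least 10, 8 of 30 proteasome genes were higher and 4 lower, against 692 and 404 of 2148. At that level the median was 0.077 for the proteasome genes and 0.135 for all tested genes, the reverse order. In RNA from whole cultures, a shift in which cells make up a culture and a change of RNA per cell cannot be told apart. The genes are named here by their place in the complex.

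In the alpha ring, 1 of 6 genes passed. PSMA5, an alpha subunit, read 12.65, 12.69 and 12.66 (log2) on the control, miR-null and miR-1 arrays of KHOS and 12.01, 12.20 and 11.87 on those of U-2OS. All 3 KHOS arrays lay above all 3 U-2OS arrays, by 0.64 ± 0.14 (log2, fitted difference ± SE, adjusted p = 0.011). PSMA2 and PSMA3 were separated in the same direction, by 0.36 and 0.38, and did not pass (adjusted p = 0.069 and 0.057). For PSMA4, PSMA7 and PSMA1 the fitted differences were 0.19, 0.25 and -0.21.

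In the beta ring, 3 of 7 genes passed. PSMB4, a structural beta subunit, had values of 13.18, 13.05 and 13.13 in KHOS control, miR-null and miR-1, against 12.12, 11.93 and 12.11 in U-2OS. The KHOS mean was 13.12 ± 0.07 (SD, n = 3 arrays) and the U-2OS mean 12.05 ± 0.11, a 2.09-fold difference (adjusted p = 0.0011). The lines were thus apart by several times the spread within either. PSMB6, which carries the caspase-like active site, had values of 12.38, 12.39 and 12.36 in KHOS, against 11.43, 11.43 and 11.38 in U-2OS. The 2 clusters were tight, with SDs of 0.02 and 0.03, and differed by 0.96 ± 0.14 (SE, adjusted p = 0.0017). PSMB2, a structural beta subunit, ran the other way, at 11.81, 11.84 and 11.85 in KHOS against 12.19, 12.36 and 12.42 in U-2OS (-0.49 ± 0.14, adjusted p = 0.025). The other active-site subunits stayed close between the lines: PSMB5, the chymotrypsin-like subunit and main target of bortezomib, differed by 0.08 (95% interval -0.26 to 0.42), and PSMB7, the trypsin-like subunit, by -0.03 (-0.39 to 0.33).

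Among the ATPases of the cap, 3 of 5 genes passed, again in both directions. PSMC1 had values of 12.19, 12.16 and 12.09 in KHOS, against 11.34, 11.43 and 11.46 in U-2OS, without overlap (0.73 ± 0.14, SE, adjusted p = 0.0057). PSMC4 was also higher in KHOS, by 0.52 ± 0.15, with its lowest KHOS value on the control array (10.57, against 10.95 and 10.96 with the vectors). PSMC3 was lower in KHOS, at 9.75, 9.72 and 9.71 against 10.40, 10.26 and 10.21 (-0.56 ± 0.14, adjusted p = 0.015). PSMC2 and PSMC6 differed by 0.0040 and 0.20 and did not pass.

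Among the non-ATPase subunits 1 of 9 genes was higher in KHOS and 2 were lower. PSMD4, a ubiquitin receptor of the cap, had values of 12.38, 12.56 and 12.57 in KHOS, against 11.71, 11.70 and 11.84 in U-2OS (0.75 ± 0.14, SE, adjusted p = 0.0050). PSMD12, a scaffold subunit of the lid, had values of 11.56, 11.70 and 11.74 in KHOS, against 12.16, 12.40 and 12.23 in U-2OS (-0.59 ± 0.14, adjusted p = 0.012). PSMD11, another scaffold subunit of the lid, had values of 10.85, 10.76 and 10.76 in KHOS, against 11.31, 11.21 and 11.24 in U-2OS (-0.46 ± 0.14, adjusted p = 0.028). For these 3 genes no array of one line reached into the range of the other. PSMD14, the deubiquitinase of the lid, and PSMD1 and PSMD2, the large scaffold subunits of the base, differed by 0.06, 0.19 and -0.03. PSMD3, PSMD6 and PSMD8 gave -0.37, -0.24 and 0.08, none of which passed.

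The largest differences were outside the core and the cap themselves. PSMD5, the chaperone S5b, had values of 9.53, 9.46 and 9.45 in KHOS, against 8.24, 7.95 and 7.54 in U-2OS. It was 2.96-fold higher in KHOS (adjusted p = 0.00060), the largest difference among the 33 genes, and its U-2OS values were more spread than its KHOS values (SD 0.35 against 0.04). PSMD10, the chaperone and oncoprotein gankyrin, was higher in KHOS by 0.62 ± 0.14, and PSMD9 did not pass (-0.28). PSME1, which encodes the alpha chain of the interferon-inducible activator PA28, had values of 11.39, 11.82 and 11.43 in KHOS, against 10.59, 9.83 and 9.97 in U-2OS. This was a 2.67-fold difference (1.42 ± 0.24, SE, adjusted p = 0.0033), with no overlap between the lines but with the widest spread over conditions of the 33 genes (SD 0.24 in KHOS and 0.40 in U-2OS). PSME3, the nuclear activator PA28 gamma, and PSME4, the activator PA200, differed by -0.15 and 0.0058.

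**Figure D1:**
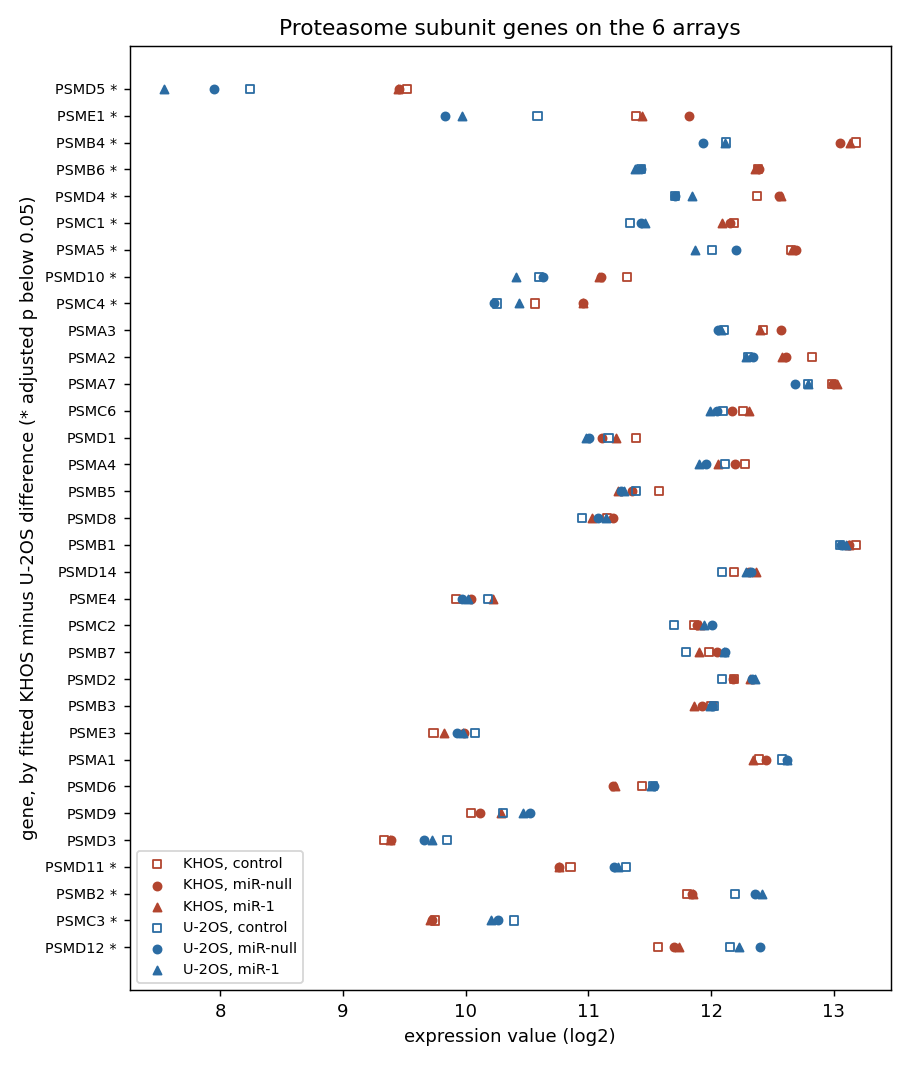
Expression values (log2, horizontal axis) of the 33 tested proteasome genes, 1 row a gene in the order of the fitted KHOS minus U-2OS difference, with 1 point for each of the 6 arrays (red KHOS, blue U-2OS; open squares control, circles miR-null, triangles miR-1) and an asterisk where the adjusted p was below 0.05. PSMD5 and PSME1 at the top show the widest gaps between the lines, PSMB4 and PSMB6 tight clusters apart, and PSMD12, PSMC3, PSMB2 and PSMD11 at the foot the reverse order.

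The 13 calls were not equally firm. Leaving out either array of a condition gave the same line difference, because the fit compares the lines within a condition, so leaving out 1 array gave 3 distinct fits. PSME1, PSMB4, PSMD5, PSMC1 and PSMB6 passed in 3 of 3, PSMD12 and PSMD4 in 2 of 3, and PSMB2, PSMC4, PSMC3, PSMA5, PSMD11 and PSMD10 in 1 of 3. A quantile normalization of the arrays moved the median of all genes to -0.17. It left 8 genes higher (PSMC4 at 0.30 no longer passed) and made 7 lower, with PSME3, PSMD3 and PSMD9 added. The values of 6 genes that had not passed changed sign with it: PSMB1 (-0.014), PSMB5 (-0.074), PSMC2 (-0.13), PSMD8 (-0.088), PSMD14 (-0.076) and PSME4 (-0.26). The all-gene split went from 3928 higher and 3175 lower to 3094 and 4213.

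The genes nearest to each member on its chromosome were set beside it. For each gene the 10 nearest tested genes on either side were counted in the RefSeq gene order, other members left out. Over all tested genes 30.3% were higher and 24.5% lower. PSMB4 and PSMD4 lie on chromosome 1 with 5 tested genes between them. Around each of them 12 of 19 neighbours were also higher in KHOS, and 0 (PSMB4) or 1 (PSMD4) lower, with a median neighbour difference of 0.90. Their windows overlap and share neighbours, so these are not separate observations. PSMB6, on chromosome 17, had 12 of 20 neighbours higher (median 0.64), and PSMC1, on chromosome 14, 10 of 20 (median 0.72). PSMD12, elsewhere on chromosome 17, had 12 of 20 neighbours lower (median -0.55). For 4 of the genes that passed the neighbour median was within 0.07 of 0: PSMD5 (-0.06, with 4 neighbours higher and 4 lower), PSME1 (-0.04, 5 and 2), PSMC4 (0.07, 2 and 2) and PSMD11 (-0.07, 5 and 3). Of the rest, PSMC3 had 3 neighbours higher and 7 lower (median -0.14) and PSMB2 1 and 7 (-0.24). PSMD10 had 10 higher and 5 lower (0.30) and PSMA5 8 and 5 (0.36). Among genes that did not pass, the neighbour medians were mixed. PSMD3 (-0.37) and PSMD9 (-0.28) had medians of -0.33 and -0.31. PSME4 (0.0058) had 7 neighbours higher and 0 lower (median 0.41), and PSMD8 (0.08) 9 and 4 (0.30). PSMD6 (-0.24) had a median of 0.09, and that of PSMA3 (0.38) was -5.8e-05.

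Of 30 tested partner genes of the proteasome, 9 were higher in KHOS and 5 lower, 30% and 16.7%, near the share of all tested genes for higher (30.3%) and below it for lower (24.5%). Of 6 genes for core assembly and inhibition, 3 were higher: PSMG4 (1.93 ± 0.15, SE) and PSMG1 (1.66 ± 0.15), which build the alpha ring, and PSMF1 (1.22 ± 0.19), the inhibitor PI31. Of 10 partners of the cap, 5 were higher: UCHL5 (1.87 ± 0.15), a deubiquitinase of the cap, UBQLN1 (1.24), ECPAS (1.02), TXNL1 (0.54) and USP14 (0.51). Another 3 of these partners were lower: the shuttle factors UBQLN4 (-0.70) and RAD23B (-0.45) and the cap subunit SEM1 (-0.55). Among 6 genes of the NRF1 route, UFD1, a cofactor of the segregase VCP, was lower (-1.09 ± 0.14) and NFE2L2, the relative of NRF1 that answers oxidative stress, was higher (0.90 ± 0.16). NFE2L1 itself differed by -0.31 and did not pass (adjusted p = 0.12). Of the 3 immunoproteasome genes PSMB10 was lower in KHOS (-0.83 ± 0.14), and 0 of 3 ubiquitin and E1 genes and 0 of 2 zinc finger stress partners passed.

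Many proteasome genes have more than 1 probe set, and these did not always report the same difference between the lines. Of the 34 genes, 20 had several probe sets, at most 4, and 26 further probe sets of 18 genes reached the level threshold. The comparison of further with chosen probe sets was chosen after the values were seen. Tested as the difference between the further and the chosen probe set of a gene, 9 of the 26 gave a higher KHOS minus U-2OS difference than the chosen probe set and 2 a lower one. That was 34.6% and 7.69%, where 20.9% and 20.8% of 10052 further probe sets of all tested genes did so. The filter used the mean over all arrays, and 2 of the 9, PSMC2 238020_at and PSMA5 230300_at, had all 3 U-2OS values below the level threshold of 5.11 and passed it only through KHOS. Among further probe sets that reached the threshold in each line, 7 of 24 were higher and 2 lower (29.2% and 8.33%), against 19.7% and 20.7% of 8770.

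The 9 belonged to 7 genes. For PSMC2 the chosen probe set, 201068_s_at, had values of 11.86, 11.88 and 11.91 in KHOS, against 11.70, 12.01 and 11.94 in U-2OS. Its further probe set 201067_at had values of 8.75, 8.69 and 8.57 in KHOS, against 6.09, 5.19 and 5.44 in U-2OS. The chosen probe set of this ATPase thus overlapped between the lines while 201067_at was apart by 3.10 (log2; further minus chosen 3.09 ± 0.24, SE, adjusted p = 0.00075). The other further probe set, 238020_at, was at 7.98, 7.62 and 7.88 on the KHOS arrays, a mean 2.72 above the level threshold, and at 4.65, 4.77 and 4.24 on the U-2OS arrays, all below it.

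PSMD12 and PSMD11, both lower in KHOS by the chosen probe set, were higher by the further one. For PSMD12 202353_s_at had values of 10.22, 9.56 and 9.72 in KHOS, against 9.25, 8.17 and 8.10 in U-2OS. For PSMD11 208776_at had values of 7.92, 7.31 and 7.52 in KHOS, against 6.71, 5.91 and 5.74 in U-2OS. In both genes the sign of the line difference therefore depended on the probe set, with further minus chosen at 1.92 ± 0.18 (SE, adjusted p = 0.0011) and 1.93 ± 0.17 (adjusted p = 0.0011). The others of the 9 were PSME4 212222_at (further minus chosen 2.19) and 212220_at (0.57), PSMA2 201316_at (1.61) and PSME3 200988_s_at (1.14), together with PSMA5 230300_at, whose KHOS mean lay 2.09 above the threshold and whose highest U-2OS value was 4.42.

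The 2 that gave a lower KHOS difference were PSMD4 210459_at (-1.10) and PSMB4 228204_at (-0.55). The further probe sets lay below the chosen ones in signal by construction, and the lower of them near the level threshold: PSMD4 210459_at had a mean of 5.44 where the chosen probe set had 12.13. Further probe sets whose line difference had the other sign than the chosen one numbered 9 of 26, a count not made over all further probe sets. Besides PSMD12, PSMD11, PSMD4 210459_at and PSME3 200988_s_at these were PSMA3 237300_at, PSMB1 200876_s_at, PSMB7 244801_at, PSMD9 209334_s_at and PSME3 209852_x_at, none of which differed from its chosen probe set by an amount that passed. PSMD4 differed between the lines by 0.75, 0.84 and 0.88 in its 3 bright probe sets. The bright further probe sets of PSMB4 (202243_s_at) and PSMA1 (210759_s_at) gave a further minus chosen difference of -0.28 and -0.30, which did not pass (adjusted p = 0.19 and 0.15). Which part of each transcript a probe set reads was not analysed here.

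**Figure D2:**
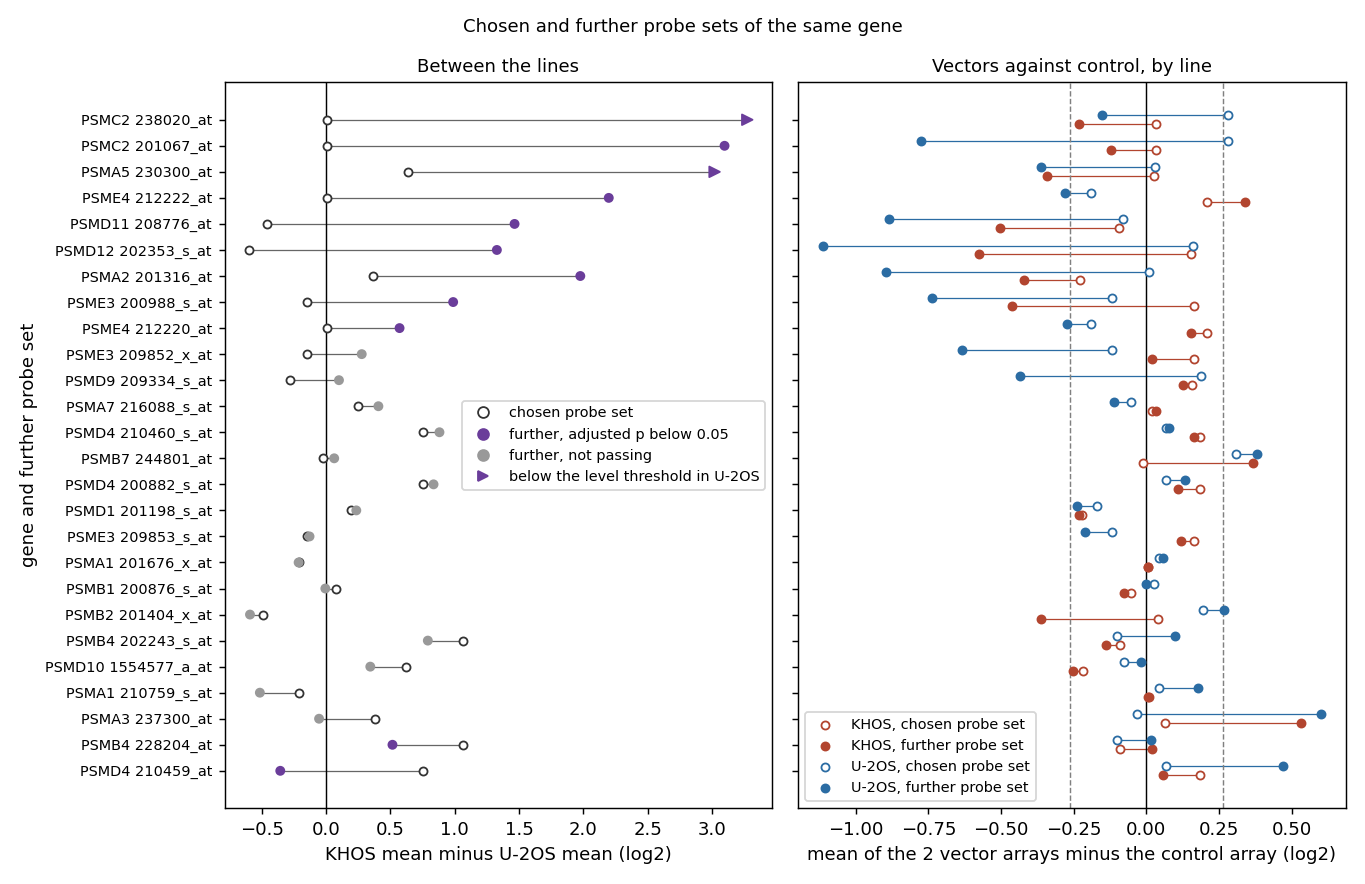
The 26 further probe sets of 18 proteasome genes (filled) beside the chosen probe set of the same gene (open), joined by a line, with the KHOS mean minus the U-2OS mean on the left and the mean of the 2 vector arrays minus the control array of each line on the right (log2; dashed lines at 1.2-fold). On the left, purple marks the 11 further probe sets whose difference from the chosen one passed; sideways triangles mark the 2 that were below the level threshold in U-2OS. PSMC2 201067_at, PSME4 212222_at and the further probe sets of PSMD11 and PSMD12 lie far right of their chosen probe set.

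The miR-1 vector was set against the miR-null vector, the vector control of the series. The mature microRNA is given with its seed, bases 2 to 8, in capitals, because the seed is the stretch that pairs with target transcripts. The sequence is RefSeq's, from MIR1-1 on chromosome 20 and MIR1-2 on chromosome 18 (GRCh38.p14).
hsa-miR-1-3p: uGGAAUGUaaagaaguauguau

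No proteasome gene passed between the vectors, and neither did any other tested gene (0% of 12958). At an unadjusted p below 0.05 there were 0 of 33 proteasome genes and 78 of all tested genes. The fitted changes of the 33 genes ran from -0.21 (PSMD5) to 0.13 (PSMB4), with a median of -0.02 against -0.04 for all tested genes, so all 33 stayed within 1.2-fold (0.26 on the log2 scale, the threshold named in the series' design text), where 12.6% of all tested genes differed by at least that much. Of the 30 proteasome genes with a mean of at least 10 the count was 0, near the 2.98% of all tested genes at that level. The half-width of the 95% interval, before adjustment, was 0.41 (log2) for the median proteasome gene. Fitted changes of all tested genes ran from -0.99 to 1.30 and none passed, so changes larger than 0.41 could also go undetected with these arrays.

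The lowest 4 values belonged to PSMD5 (-0.21 ± 0.21, SE), PSMA5 (-0.18 ± 0.18), PSME1 (-0.12 ± 0.29) and PSMD10 (-0.12 ± 0.17), and the highest 4 to PSMB4 (0.13 ± 0.17), PSME4 (0.11 ± 0.19), PSMC4 (0.11 ± 0.18) and PSMD2 (0.08 ± 0.17). Within KHOS alone only PSME1 differed by 1.2-fold or more (-0.39), and within U-2OS PSMD5 (-0.41) and PSMA5 (-0.34) did. That was 0 higher and 1 lower gene in KHOS, against 7.39% and 11.8% of all tested genes, and 0 higher and 2 lower in U-2OS, against 11.8% and 19.2%. The lines disagreed on PSME1, which was 0.14 higher with miR-1 in U-2OS. The partner genes with the largest values were the stress-induced proteasome partner ZFAND2A (0.52 ± 0.24) and PSMB9 (-0.49 ± 0.65), which did not pass either.

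**Figure D3:**
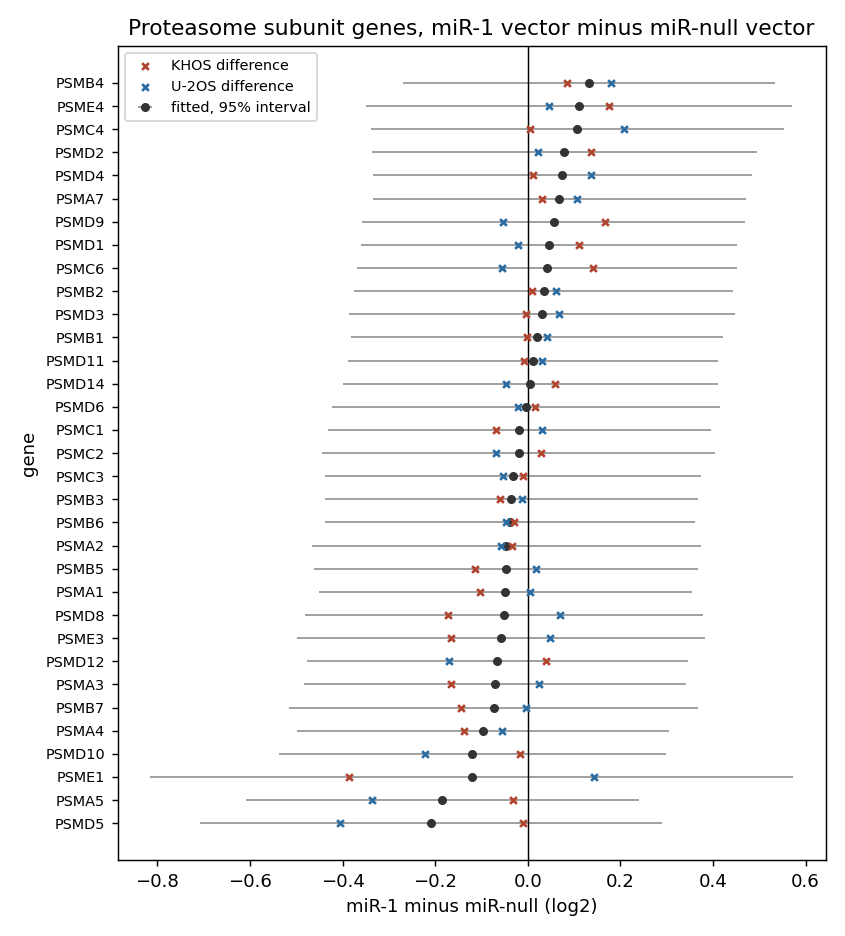
Fitted miR-1 minus miR-null change of the 33 tested proteasome genes (log2, black points with 95% intervals) and the difference within KHOS (red crosses) and U-2OS (blue crosses). All 33 intervals cross 0, and the fitted values lie between -0.21 and 0.13.

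The vectors were also set against control, first miR-null alone and then both vectors together. With the miR-null vector 0 of the 33 genes passed, as did 0% of all tested genes (limma), and 0 of the 33 against 1263 of all tested genes had an unadjusted p below 0.05. The fitted changes ran from -0.22 ± 0.17 (SE) for PSMD1 to 0.19 ± 0.17 for PSMD12. PSMD5 (-0.18), PSMB5 (-0.17) and PSME1 (-0.16) were next at the low end, and PSMB7 (0.19), PSMD14 (0.18) and PSMC4 (0.18) at the high end.

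With both vectors together no proteasome gene passed, as against 0.0232% of all tested genes (3 genes), and 0 of 33 had an unadjusted p below 0.05, against 2006 of 12958. Only PSMD5 had a fitted change of 1.2-fold or more, 1 of 33, where 36.6% of all tested genes did. Among genes with a mean of at least 10 the count was 0 of 30 proteasome genes against 36.7% of all, and with a mean of at least 12 it was 0 of 13 against 21.2%. The fitted changes ran from -0.28 ± 0.18 (SE, PSMD5) to 0.23 ± 0.16 (PSMC4), with a median of -0.01 against -0.03 for all tested genes and an interquartile range of 0.22 against 0.39. Next to PSMD5 at the low end were PSME1 (-0.22), PSMD1 (-0.20) and PSMB5 (-0.19), and next to PSMC4 at the high end PSMD14 (0.18), PSMD9 (0.17) and PSMD2 (0.16). The comparisons with control share the control arrays, and the 2 control arrays enter all these values.

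By role, the median change with both vectors was -0.00064 in the alpha ring, -0.02 in the beta ring, 0.02 in the ATPases, 0.06 in the non-ATPase subunits, -0.15 in the chaperones and 0.0087 in the activators. Within KHOS 1 gene was at least 1.2-fold higher (PSMC4, 0.39) and 1 lower (PSMB5, -0.28), against 20.1% and 15.9% of all tested genes. Within U-2OS 2 were higher (PSMB7, 0.31, and PSMC2, 0.28) and 2 lower (PSME1, -0.68, and PSMD5, -0.50), against 18.9% and 35.5%. PSMB5 read 11.58, 11.36 and 11.24 on the KHOS arrays and 11.39, 11.27 and 11.29 on the U-2OS arrays, highest on the control array in both lines. No gene crossed 1.2-fold in both lines in the same direction: 0 of 33 chosen probe sets were lower in both, against 9.45% of all tested genes, and 0 of 33 were higher, against 4.89%.

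**Figure D4:**
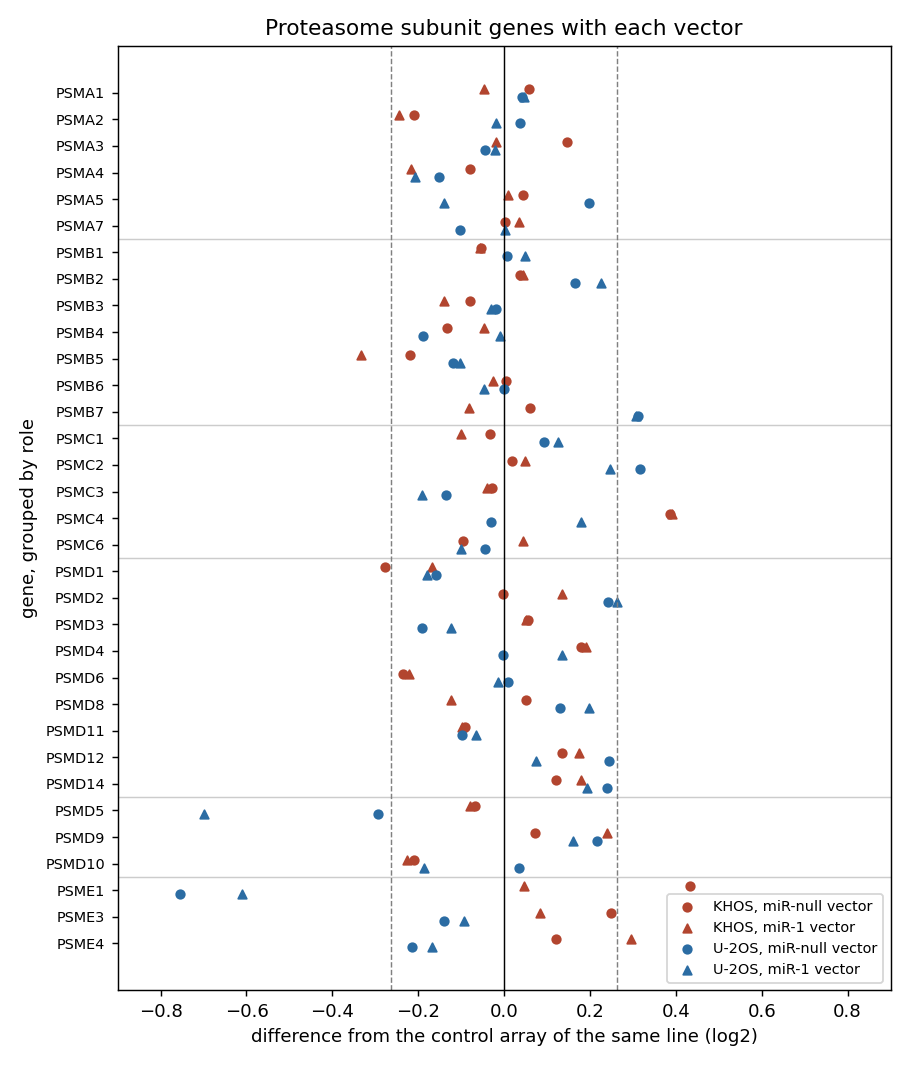
Difference of each vector array from the control array of its line (log2) for the 33 tested proteasome genes, grouped by role with grey lines between the roles (red KHOS, blue U-2OS; circles miR-null, triangles miR-1; dashed lines at 1.2-fold). Most points lie between the dashed lines; PSME1 and PSMD5 in U-2OS reach farthest to the left and PSME1 with miR-null and PSMC4 in KHOS to the right.

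The partner genes gave larger values, none of which passed. ZFAND2A, which is induced by arsenite and proteasome stress, had values of 10.14, 11.20 and 12.08 in KHOS control, miR-null and miR-1, against 10.94, 11.90 and 12.06 in U-2OS. Each vector array was above the control array of its line, with a fitted change of 1.27 ± 0.21 (SE, adjusted p = 0.14). ZFAND5, a proteasome activator, gave 0.51 ± 0.16 and NFE2L2 0.47 ± 0.17, while NFE2L1 gave 0.10 ± 0.16. Negative values were found in 7041 of 12958 tested genes, and in 1420 of the 2148 with a mean of at least 10. Of the 6 genes for core assembly and inhibition 5 had negative values, with a median of -0.24, and of the 10 cap partners 8 did, with a median of -0.19. These medians differed between the lines: -0.05 in KHOS and -0.38 in U-2OS for core assembly and inhibition, and -0.05 and -0.34 for the cap partners. In U-2OS, 35.5% of all tested genes were at least 1.2-fold lower.

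The further probe sets gave more negative changes with the vectors than the chosen ones in several genes. At least 1.2-fold lower in both lines were 5 of the 26 further probe sets, 19.2%, against 11.7% of all further probe sets. Among those that reached the level threshold in each line it was 4 of 24, 16.7%, against 11.9%. PSMD12 202353_s_at, whose array values are given above, averaged -0.57 from control in KHOS and -1.11 in U-2OS, while the chosen probe set was 0.15 and 0.16 higher. The fitted difference between the 2 probe sets had a 95% interval of -1.46 to -0.54 before adjustment and did not pass (adjusted p = 0.15). The others were PSMD11 208776_at (fitted -0.69), PSMA2 201316_at (-0.66), PSME3 200988_s_at (-0.60) and PSMA5 230300_at, which was below the level threshold on all 3 U-2OS arrays. PSMA3 237300_at (0.57) and PSMB7 244801_at (0.37) were higher in both lines, 7.69% against 5.62% of all further probe sets. PSMB7 244801_at had a mean of 5.17 and control arrays at 4.95 (KHOS) and 4.88 (U-2OS), below the level threshold. It reached that threshold only through vector arrays, so its higher values with the vectors are not separate from the filter.

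For the difference between further and chosen probe sets 0 of 26 passed, as did 0% of 10052, while 6 of 26 and 1599 of 10052 had an unadjusted p below 0.05. With the KHOS control array left out, PSMC2 201067_at and PSMD12 202353_s_at passed, with 420 lower and 520 higher over all genes, so those calls rest on the U-2OS control array alone. Changes of the other sign than the chosen probe set numbered 11 of 26: those of PSMA5 230300_at, PSMB2 201404_x_at, PSMB4 228204_at, PSMC2 201067_at and 238020_at, PSMD12 202353_s_at, PSMD9 209334_s_at, PSME3 200988_s_at, 209852_x_at and 209853_s_at, and PSME4 212220_at. This count of sign changes was not made over all further probe sets. The same 5 probe sets that were lower with vectors in both lines were also among the 9 with a higher KHOS minus U-2OS difference. Their levels were 5.69 (PSMA5) to 9.17 (PSMD12), below those of the chosen probe sets.

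Finally, the change from control to both vectors was compared between the lines. No proteasome gene passed, against 2.28% of all tested genes. PSME1 came nearest: its control and miR-null arrays were at 11.39 and 11.82 in KHOS and at 10.59 and 9.83 in U-2OS, and its miR-1 arrays at 11.43 and 9.97. Both KHOS vector arrays were thus above the KHOS control and both U-2OS vector arrays below the U-2OS control. The difference in the change was 0.92 ± 0.29 (SE, adjusted p = 0.12). The other high values were PSMD5 (0.42), PSME4 (0.40) and PSMC4 (0.31), and the lowest were PSMB7 (-0.32), PSMC2 (-0.25), PSMA2 (-0.24) and PSMD6 (-0.23). The median of the 33 genes was -0.01 and that of all tested genes 0.14.

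PSME1 belongs to the interferon-inducible set with the immunoproteasome subunits, which replace active-site subunits of the core. PSMB9 replaces PSMB6, and had values of 7.62, 9.21 and 8.51 in KHOS control, miR-null and miR-1, against 8.17, 6.83 and 6.54 in U-2OS. The lines thus went opposite ways, with a difference in the change of 2.73 ± 0.39 (SE, adjusted p = 0.016). It no longer passed without the KHOS miR-null array (2.38, adjusted p = 0.082), without the KHOS miR-1 array (3.08, adjusted p = 0.056) or with quantile normalization (2.48, adjusted p = 0.092). PSMB8, which replaces PSMB5, had values of 8.79, 9.80 and 9.21 in KHOS, against 9.34, 8.58 and 8.76 in U-2OS. Its vector arrays were also above the control array in KHOS and below it in U-2OS (1.39 ± 0.35, adjusted p = 0.074). PSMB10, which replaces PSMB7, was at 8.41 to 8.62 in KHOS and 9.23 to 9.54 in U-2OS and gave 0.14. Of PSMB5, PSMB6 and PSMB7, the constitutive counterparts, the largest departure of a vector array from its control array was -0.33 (log2), for PSMB5 on the KHOS miR-1 array.

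**Figure D5:**
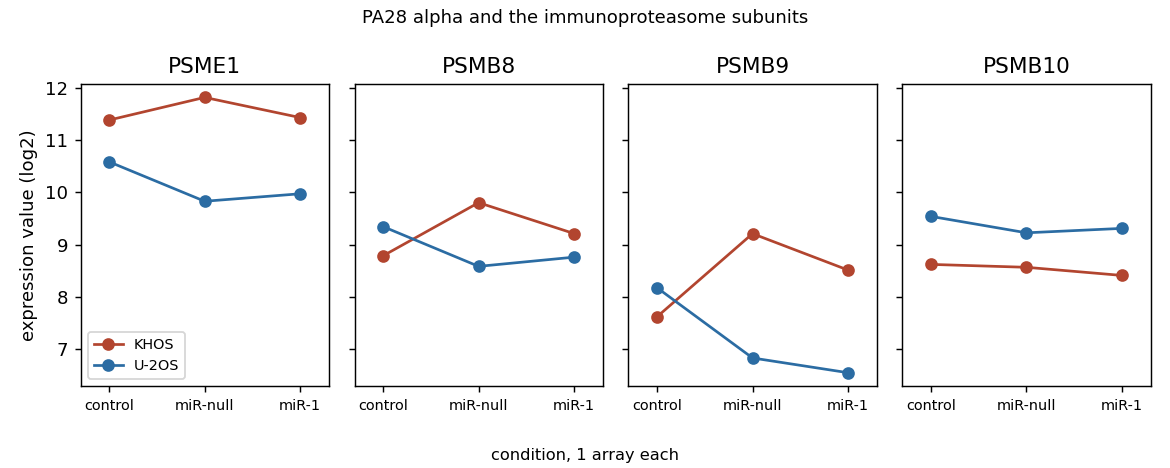
Expression values (log2) of PSME1 and the 3 immunoproteasome genes on the control, miR-null and miR-1 arrays of KHOS (red) and U-2OS (blue), 1 array a point; lines join the arrays of a line. In PSME1, PSMB8 and PSMB9 the KHOS vector arrays lie above the KHOS control and the U-2OS vector arrays below the U-2OS control, while PSMB10 stays between 8.41 and 9.54.

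Promoters of the members were read to show where the NRF1 element lies, since this element is the known link between subunit genes. RefSeq promoter windows (GRCh38.p14) were matched for 29 of the 34 genes, and the 250 bases before the annotated start were searched on both strands. The core of the antioxidant response element, TGACNNNGC, was found in 7 of the 29 windows, 24.1%, against 11.0% of 27305 promoters of the same length and 12.0% of those of 10455 tested genes. The other letters searched are given with their share in the 29 windows, in all promoters and in those of tested genes. The CCAAT box, CCAAT, was in 44.8%, 33.0% and 34.7%, and an ETS site, CCGGAAG, in 27.6%, 8.8% and 15.5%. The GC box, GGGCGG, was in 58.6%, 42.3% and 66.0%, above all promoters and below those of tested genes. The TATA box, TATAAA, was in 13.8%, 11.1% and 5.7%, and a heat shock element pair, TTCNNGAA, in 6.9%, 6.7% and 5.2%. A base could lie in matches of more than one motif. The median GC content was 60.8% in the 29 windows and 58.0% in all promoters.

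Shown here are 4 of the 7 windows with the element, chosen as a beta subunit (PSMB3), subunits of the cap (PSMD3 and PSMD12) and the chaperone with the largest line difference (PSMD5). Capitals mark the element core and any CCAAT box on either strand, and each sequence runs 5' to 3' towards the start.
PSMB3, chr17:38752491-38752740, plus strand: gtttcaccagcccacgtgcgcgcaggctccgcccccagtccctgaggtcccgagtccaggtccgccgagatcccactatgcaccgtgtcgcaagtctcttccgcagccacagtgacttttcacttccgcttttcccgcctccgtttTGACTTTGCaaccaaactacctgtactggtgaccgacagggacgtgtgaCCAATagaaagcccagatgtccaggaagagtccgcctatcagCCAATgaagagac
PSMD3, chr17:39980557-39980806, plus strand: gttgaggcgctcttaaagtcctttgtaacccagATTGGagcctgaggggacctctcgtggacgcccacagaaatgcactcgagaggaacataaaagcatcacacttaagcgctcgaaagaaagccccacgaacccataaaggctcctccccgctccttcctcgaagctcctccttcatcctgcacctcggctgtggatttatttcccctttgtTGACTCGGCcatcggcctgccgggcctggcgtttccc
PSMD12, chr17:67366578-67366827, minus strand: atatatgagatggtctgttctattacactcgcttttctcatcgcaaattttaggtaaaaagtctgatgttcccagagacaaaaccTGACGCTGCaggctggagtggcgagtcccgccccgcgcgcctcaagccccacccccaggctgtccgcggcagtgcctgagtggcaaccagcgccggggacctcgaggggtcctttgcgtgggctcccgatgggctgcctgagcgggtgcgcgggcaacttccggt
PSMD5, chr9:120842923-120843172, minus strand: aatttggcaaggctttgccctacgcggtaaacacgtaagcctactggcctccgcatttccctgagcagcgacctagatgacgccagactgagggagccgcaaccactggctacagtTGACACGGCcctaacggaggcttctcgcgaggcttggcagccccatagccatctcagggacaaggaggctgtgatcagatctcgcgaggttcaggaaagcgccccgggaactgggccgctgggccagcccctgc

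The element core lay 96 to 104 bases before the start in PSMB3, 29 to 37 in PSMD3, 157 to 165 in PSMD12 and 126 to 134 in PSMD5, all on the strand of the gene. PSMD9, PSME1 and PSME4 held it as well. With both vectors against control the 7 genes had fitted changes of -0.07 (PSMB3), -0.05 (PSMD3), 0.16 (PSMD12), -0.28 (PSMD5), 0.17 (PSMD9), -0.22 (PSME1) and 0.0087 (PSME4). These values fall on both sides of 0, and none passed.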

How the data were processed

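The authors ran RMA in the program Qlucore on Affymetrix U133 Plus 2.0 arrays, as the series' design text says. Their deposited log2 values (2.83 to 14.90, 0 missing) were used as they stand. Of 54675 probe sets, 41091 had 1 gene symbol, 1801 several, 11721 none, and 62 were controls; no gene was named from several symbols, and 41037 matched RefSeq by Entrez identifier with 0 symbols updated. Probe sets ending in x_at, 7 of the 66, can share signal between related genes.

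One probe set a gene was fitted with lmFit and eBayes (limma 3.58.1, R 4.3.3), with line and condition as additive terms over 6 arrays (2 residual degrees of freedom) and Benjamini-Hochberg adjustment over 12958 genes. A response that differs between KHOS and U-2OS is part of this residual spread. The line difference in the vector change was an interaction term, with spread from the 2 vector arrays of each line. The additive fit was tested on simulated data for the line and the miR-null differences, with independent noise of the same SD for all genes. The interaction term, the contrast of both vectors and the further minus chosen differences were not simulated. Every member was accounted for by role; members that passed, or else the 4 highest and 4 lowest, were named. The members, lists and tests were chosen with earlier results of these data known. The number of arrays limits the precision.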

Additional observations from a re-analysis of the deposited data

Results flagged for a closer look

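The change from control to both vectors differed between the lines in PSMB9, an immunoproteasome subunit gene outside the constitutive set. The difference, KHOS minus U-2OS, was 2.73 (log2, limma interaction term, adjusted p = 0.016). The adjusted p was 0.082 without the KHOS miR-null array, 0.056 without the KHOS miR-1 array and 0.092 with quantile normalization, and 0.00041 to 0.020 under the other alternatives run. Both KHOS vector arrays lay above the KHOS control array and both U-2OS vector arrays below the U-2OS control array. Each line had 1 control array, so the control side of these values rests on 2 arrays.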

How the results depend on the processing

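For the named genes, 391 gene-by-setting values kept direction and side of the threshold, 16 lost the call, 2 gained it and 9 changed sign. The level filters and the prior variance leave a fitted value unchanged, so no sign could change with them. Left-out arrays of the same condition give the same line difference and were each counted. The 391 is therefore not a measure of stability. Between the lines, quantile normalization gave 7 of 33 genes lower, against 4213 of 12973 over all genes, and a median of -0.074. All probe sets tested singly gave 22 of 59 higher and 6 lower, against 7325 and 4823 of 23010, and a median of 0.20. Leaving out 1 array gave 5 to 10 of 33 higher and 0 to 4 lower (3 distinct fits, 1 for each condition). Over all 12958 genes these fits gave 2738 to 4791 higher and 1733 to 3974 lower. The fewest came without either miR-null array. The exact Mann-Whitney test with a 1.2-fold change gave 0 higher and 0 lower, as 3 against 3 arrays cannot go below p = 0.1, 2 against 4 below 0.133 and 2 against 2 below 0.333.

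With both vectors against control, leaving out 1 array gave 0 to 1 gene lower: PSME1 at -0.68 (adjusted p = 0.042) without the KHOS control array. Over all genes the 3 calls became 46 higher and 16 lower with both vectors as 1 condition, an alternative chosen after seeing the data, 50 and 24 with a prior variance following the mean, 10 and 1 with quantile normalization, 18 and 1 with no level filter, 15 and 1 with the 75th percentile filter, and 1 and 0 over all probe sets. They became 497 and 1781 without the KHOS control array, 607 and 115 without that of U-2OS, and 10 to 37 higher and 0 to 8 lower without any other array. For miR-null against control the 0 calls became 23 higher and 2 lower with that prior variance and 13 higher on the 4 arrays compared. They became 308 and 1038 without the KHOS control array, 458 and 60 without that of U-2OS, and 13 and 0 without either miR-1 array. For the line difference in the vector change, quantile normalization gave a median of -0.14, and the prior variance gave 1 gene higher (PSME1, 0.92, adjusted p = 0.023). Over all genes its 259 higher and 37 lower calls became 13 and 6, and 761 and 102. They became 495 and 58 with the 75th percentile filter, 301 and 22 over all probe sets, 4 and 2 without KHOS miR-null, 5 and 2 without KHOS miR-1, 1257 and 274 without U-2OS miR-null and 362 and 78 without U-2OS miR-1; this fit could not be made without a control array.

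Among the genes named for the vector comparisons, values that changed sign came with 1 array left out, and none had passed. Between the lines, 6 uncalled genes changed sign with quantile normalization and 4 with 1 array left out (PSMB7, PSMC2, PSMD2 and PSME4). Over the left-out arrays, miR-1 minus miR-null ran from -0.55 to 0.31 for PSME1 and from -0.011 to 0.17 for PSMD2 (turned without KHOS miR-null), from -0.037 to 0.26 for PSME4 (KHOS miR-1), from -0.049 to 0.26 for PSMC4 (U-2OS miR-null) and from -0.46 to 0.046 for PSMD5 (U-2OS miR-1). For miR-null minus control the ranges were -0.39 to 0.031 for PSMD5 (U-2OS control) and -0.62 to 0.30 for PSME1 (U-2OS control or miR-null), and for both vectors -0.68 to 0.24 for PSME1 (U-2OS control). Further minus chosen probe sets gave 0 to 2 lower with vectors over the left-out arrays. Between the lines they gave 8 to 11 of 26 higher and 0 to 2 lower, against 903 to 2312 higher and 729 to 2428 lower of 10052. Here 212220_at was the 1 of the 9 that lost its call. With the level threshold reached in each line, an alternative chosen after seeing the data, 2 of the 9 were not tested and 7 remained. The cause of these changes was not tested. The additive fit compares the lines within a condition and the conditions within a line. No paired analysis by replicate number was possible because the labels give none.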
